A study of Mus musculus with 12 samples.

Results

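The 36 genes described here encode the machinery that makes ribosomes in the nucleolus. The rule that picks them uses a list of gene symbols and no measured value. They took 36 of the 55414 rows in the counts table of this RNAseq experiment, and all 36 were among the 13857 genes that passed the filter on low counts and were tested. Livers came from 12 female C57BL/6J mice, 8 to 12 weeks old by the study's methods, in 4 groups of 3. Every mouse received an i.p. injection of saline (0.9% NaCl) or of 300 mg/kg FeSO4 (iron sulfate), and 6 h later a second one of PBS or of 10 mg/kg DEX (dexamethasone, a synthetic glucocorticoid). Livers were taken 2 h after the second injection, which is 8 h after the first. The groups are called NaCl/PBS, NaCl/DEX, FeSO4/PBS and FeSO4/DEX. All mice had the same unmodified genotype, and no group carried a transgene or deletion. The question behind the design was whether iron overload changes how the liver responds to a glucocorticoid.

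Ribosome production starts in the nucleolus, where RNA polymerase I transcribes the long precursor of the ribosomal RNAs. Small nucleolar ribonucleoproteins (snoRNPs) then guide methylation (box C/D class) and pseudouridylation (box H/ACA class) of that precursor, and large assemblies of processing factors fold and cut it into the RNAs of the small and the large ribosomal subunit. Many of these genes are known targets of the transcription factor MYC, which binds with its partner MAX to a short DNA element, the E-box. In liver, nucleolar gene expression is known to rise when hepatocytes prepare to grow or divide.

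The 12 libraries held between 16335651 and 23827340 counts and 17493 to 18579 detected genes. Together the 36 genes took between 0.0830% and 0.0931% of all counts in the NaCl/PBS mice, 0.105% to 0.111% in the NaCl/DEX mice, 0.176% to 0.203% in the FeSO4/PBS mice and 0.145% to 0.172% in the FeSO4/DEX mice. Values below are normalized counts, scaled by edgeR for library size and composition. FeSO4/PBS mouse 1 stood apart from its group, with a chi-square of 89.5 and 71.4 per gene against mice 2 and 3, which differed from each other by 23.98. It had the highest value of its group in 27 of the 36 genes, so results are also given without it. The hepatocyte markers were expressed in every liver, with summed levels of 1944230 to 2313120 normalized counts in NaCl/PBS and 2536760 to 2813210 in FeSO4/PBS mice, and 5 of 9 were called higher after FeSO4. Markers of other cells also moved with FeSO4. The summed neutrophil markers went from a range of 115 to 284 to one of 677 to 792, with 4 of 5 tested markers higher and Mpo listed at 0 in both groups. Macrophage marker sums went from 7182 to 8417 down to 4595 to 5235, with 6 of 8 markers lower. The cholangiocyte sums went from 533 to 683 up to 1068 to 1376, with 2 of 5 markers higher, and the erythroid sums from 1567 to 3730 up to 2886 to 5559, with 3 of 5 tested markers higher. Dividing-cell marker sums were 619 to 709 in NaCl/PBS and 793 to 1098 in FeSO4/PBS mice, with 1 of 7 markers called. Of the endothelial markers 2 of 7 were higher and 2 lower, of the stellate cell markers 2 of 6 were higher and 1 lower, and 1 of 5 tested lymphocyte and 1 of 2 tested mesothelial markers were lower. Of all genes tested, 27.2% were called higher and 27.3% lower after FeSO4, and several of these marker counts lay near those shares. The part of these shifts in the values below was not tested. In whole liver, a change in the number of cells of a type and a change in RNA per cell cannot be told apart.

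Because many such genes are MYC targets, the E-box sequence CACGTG was looked for at their starts. It reads the same on both strands. In the 250 bases before the RefSeq gene start (GRCm38.p6), available for 30 of the 36 genes, it was found in 2 genes, or 6.67%, against 6.86% of the 27025 genes in the same table. Those 2 sequences are shown because they are the promoters that hold the element, with the E-box in capitals.
Rrn3 (chr16:13780449-13780698, plus strand): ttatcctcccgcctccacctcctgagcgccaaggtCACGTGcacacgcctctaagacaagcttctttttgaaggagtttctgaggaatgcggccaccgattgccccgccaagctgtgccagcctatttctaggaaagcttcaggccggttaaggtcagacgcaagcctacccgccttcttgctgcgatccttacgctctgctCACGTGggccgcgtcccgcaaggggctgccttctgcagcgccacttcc
Nop2 (chr6:125131633-125131882, plus strand): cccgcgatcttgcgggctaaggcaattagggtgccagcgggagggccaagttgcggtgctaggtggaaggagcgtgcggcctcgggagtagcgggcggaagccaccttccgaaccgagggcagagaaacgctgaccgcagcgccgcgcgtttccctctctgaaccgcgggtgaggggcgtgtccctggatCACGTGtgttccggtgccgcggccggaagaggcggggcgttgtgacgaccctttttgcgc

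A wider window, chosen after the data were seen, gave another picture on the other side of the start. Within 1000 bases after the GENCODE gene start (GRCm39), 24 of the 36 genes held the element (66.7%), against 2281 of 12674 protein-coding genes tested (18%). Within 1000 bases before the start, it was present in 5 of 36 (13.9%) and in 17.0% of the tested genes. A palindrome of the same base composition, GACGTC, was present after the start in 4 of 36 (11.1%) and 12.7%. The windows after the start had a median GC content of 55.2% in the 36 genes and of 57.3% in all tested genes. The 24 genes held 32 E-boxes, at 28 to 915 bases after the start, and the nearest one lay in an exon of the canonical transcript in 16 genes, in an intron in 6 and outside that transcript in 2. The following are shown because the genes that carry them are among those with the larger changes described below, with 10 bases on either side of the E-box in capitals.
Nop58 (chr1:59724532-59724557, plus strand, intron, 436 bases after the start): ttcaggtgaaCACGTGgcttctccga
Rrp12 (chr19:41884589-41884614, minus strand, exon, 45 bases after the start): tgaggacacaCACGTGggttctgccg
Gnl3 (chr14:30740950-30740975, minus strand, exon, 399 bases after the start): ttccagttcgCACGTGgcgcccgaga
Rrs1 (chr1:9615651-9615676, plus strand, exon, 28 bases after the start): cggacgtccgCACGTGgttgccggtt
Ddx21 (chr10:62437169-62437194, minus strand, intron, 915 bases after the start): ttgggcagctCACGTGttggcaggtg
Wdr43 (chr17:71923217-71923242, plus strand, exon, 337 bases after the start): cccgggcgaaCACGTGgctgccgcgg
Gar1 (chr3:129624762-129624787, minus strand, exon, 268 bases after the start): gctggagacgCACGTGgcgcggtgag
Mybbp1a (chr11:72332183-72332208, plus strand, exon, 124 bases after the start): cttctgagccCACGTGtttggctcag
A match is a run of letters and does not show that a factor was bound. Rrp1b, Gnl2 and Nolc1, which also changed strongly, had no E-box in this window. The 24 genes with the element after the start had a median LFC (log2 fold change) of 1.36 in FeSO4/PBS against NaCl/PBS mice, and the other 12 had a median of 1.67. In NaCl/DEX against NaCl/PBS mice the order was the other way round, with medians of 0.50 and 0.37, and neither difference was tested.

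The first comparison asked what iron alone did to these genes, 8 h after FeSO4. Nearly the whole set was upregulated. At a false discovery rate (FDR) of 0.05 or less, adjusted over all 13857 genes, FeSO4/PBS mice had higher levels than NaCl/PBS mice for 34 of the 36 genes and lower levels for 0. Over all genes tested, 27.2% were called higher and 27.3% lower. With an LFC above 1 in addition, 25 of 36 genes were called higher and 0 lower, against 12.5% and 14.7% of all genes. The median LFC of the 36 genes was 1.45, with a range from 0.22 to 3.49, and the median over all genes was -0.02. In 35 of 36 genes every FeSO4/PBS mouse was above every NaCl/PBS mouse, which was so for 29% of all genes, and in 0 of 36 were all below, against 31%. Without FeSO4/PBS mouse 1, 33 of the 36 genes were called, against 25.8% of all genes higher, and the median LFC was 1.43. The gene lost was Wdr12, whose LFC was then 0.28 (edgeR FDR 0.0658). With library size alone as the scaling, the median over all genes moved to -0.34, 16.5% of all genes were higher and 42.1% lower, and 32 of the 36 genes were called higher and 0 lower.

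**Figure D1:**
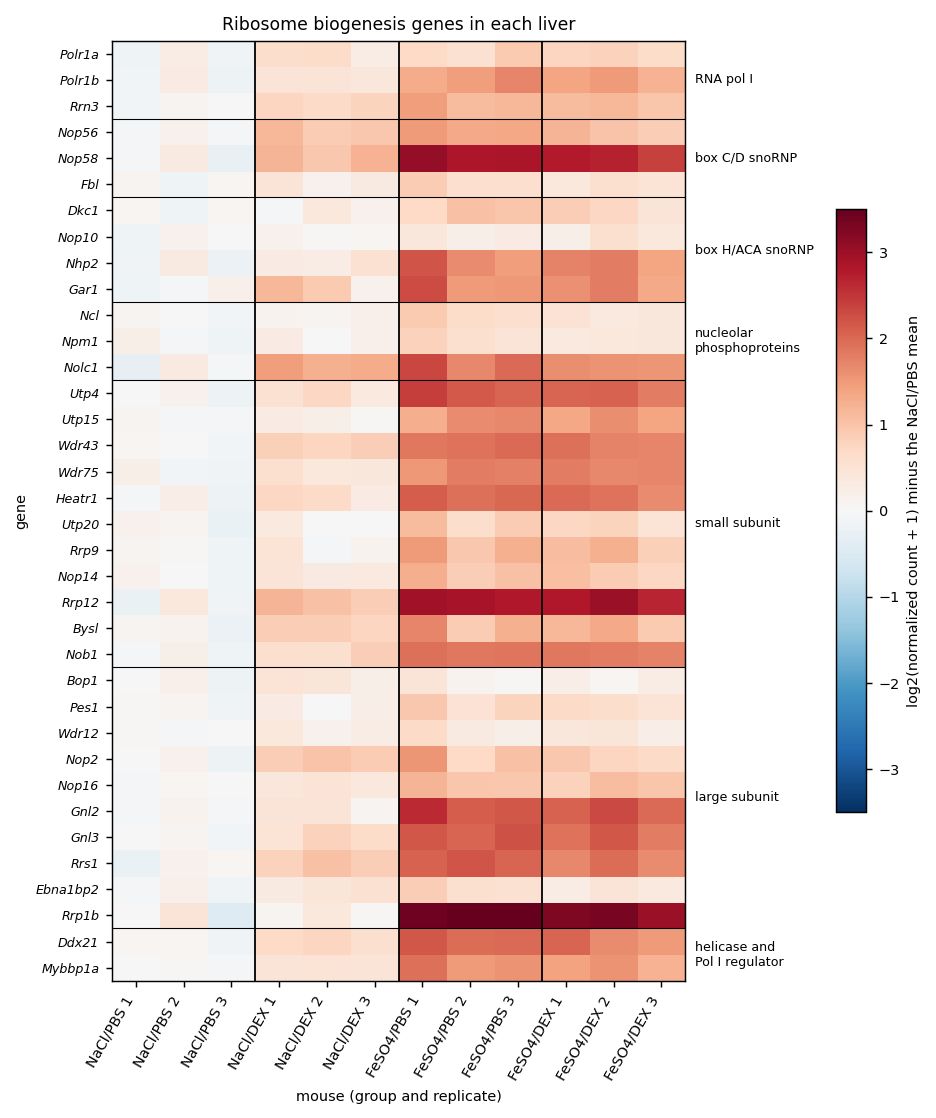
Each row is a gene and each column a mouse, with the colour giving log2(normalized count + 1) minus the mean of the NaCl/PBS mice, in log2 units; rows are grouped by role. All FeSO4 columns are red in most rows, with Rrp1b, Nop58 and Rrp12 darkest, while Bop1, Wdr12 and Nop10 stay pale.

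In what follows each mouse of a group is given in the order of its replicate number, LFCs are given ± SE from edgeR, and gene positions are those of GRCm39. Of the RNA polymerase I genes, all 3 were upregulated. Polr1b (chr2:128942903-128970214, plus strand), which encodes the second catalytic subunit, had 229, 294 and 212 normalized counts in NaCl/PBS mice and 599, 671 and 791 in FeSO4/PBS mice. The groups did not overlap, and the rise was the largest of these 3 genes (LFC of 1.49 ± 0.14, edgeR FDR 1.53e-06). Rrn3 (chr16:13598376-13635974, plus strand) encodes the initiation factor that brings the polymerase to ribosomal DNA and carries the pair of E-boxes shown above. It had 264, 303 and 278 normalized counts in NaCl/PBS mice and 777, 606 and 626 in FeSO4/PBS mice, so that every iron-treated liver held more than any control (LFC of 1.25 ± 0.12, edgeR FDR 1.5e-06). Polr1a, the gene of the largest subunit, showed the smallest rise of the 3 (LFC of 0.71 ± 0.15, edgeR FDR 0.000903).

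The box C/D genes encode the core proteins of the snoRNPs that methylate ribosomal RNA. Nop58 (chr1:59724106-59758203, plus strand) had 297, 385 and 259.9 normalized counts in NaCl/PBS mice and 2606, 2229 and 2261 in FeSO4/PBS mice. This 7.54-fold difference was the second largest of the 36 genes (LFC of 2.91 ± 0.16, edgeR FDR 1.95e-08). Its partner Nop56 had 194, 224 and 193 normalized counts in the controls and 578, 516 and 524 after FeSO4 (LFC of 1.40 ± 0.13, edgeR FDR 9.49e-07). Fbl, the gene of the methyltransferase fibrillarin, moved less. It had 264, 223 and 257 normalized counts in NaCl/PBS mice and 462, 373 and 376 in FeSO4/PBS mice, without overlap (LFC of 0.70 ± 0.13, edgeR FDR 0.000463). The 3 proteins form 1 particle, yet the LFCs of their genes ranged from 0.70 to 2.91.

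Among the 4 box H/ACA genes, whose products form the pseudouridylation particle, 3 were upregulated. Gar1 had 68.3, 73.9 and 84.6 normalized counts in NaCl/PBS mice and 371, 212 and 218 in FeSO4/PBS mice (LFC of 1.82 ± 0.27, edgeR FDR 7.02e-05). Mouse 1 was the highest of the iron group here, and the lowest iron-treated mouse was still well above any control. Nop10, the smallest protein of the particle, was 1 of the genes not called. It had 380.5, 466 and 427 normalized counts in NaCl/PBS mice and 553, 489 and 514 in FeSO4/PBS mice, which did not overlap, but the LFC of 0.29 ± 0.12 missed the threshold (edgeR FDR 0.051). Nhp2 (LFC of 1.79 ± 0.20, edgeR FDR 5.18e-06) and Dkc1, the pseudouridine synthase gene (LFC of 0.90 ± 0.15, edgeR FDR 0.000173), lay between them.

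Nucleolin (Ncl), nucleophosmin (Npm1) and Nolc1 are abundant nucleolar phosphoproteins that act as chaperones of ribosomal RNA and snoRNPs. Per kb of canonical transcript, Npm1 was the highest of the 36 genes in both groups, with means of 1026 ± 136 normalized counts per kb in NaCl/PBS and 1550 ± 196 in FeSO4/PBS mice (SD, n = 3). Its counts were 1957, 1651 and 1516 in NaCl/PBS mice and 2944, 2484 and 2312 in FeSO4/PBS mice. The groups were separate and the change was small (LFC of 0.59 ± 0.12, edgeR FDR 0.00113). Nolc1 (chr19:46064234-46073983, plus strand) had 295, 442 and 349 normalized counts in NaCl/PBS mice and 1792, 1152 and 1402 in FeSO4/PBS mice. It changed most of the 3 (LFC of 2.00 ± 0.17, edgeR FDR 5.13e-07), while Ncl had an LFC of 0.72 ± 0.11 (edgeR FDR 9.54e-05).

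The small subunit group was called as a whole, with 11 of 11 genes higher, 10 of them with an LFC above 1, and a median LFC of 1.69. Rrp12 (chr19:41847867-41884649, minus strand), needed for maturation and export of the small subunit precursor, had 78.4, 118 and 83.8 normalized counts in NaCl/PBS mice and 706, 686 and 650.4 in FeSO4/PBS mice. It rose 7.32-fold and the iron-treated mice lay close together (LFC of 2.87 ± 0.16, edgeR FDR 2.5e-08). Wdr43, a subunit of the complex that first binds the nascent precursor, had 421, 405 and 377 normalized counts in NaCl/PBS mice and 1432, 1490.3 and 1583 in FeSO4/PBS mice (LFC of 1.90 ± 0.10, edgeR FDR 1.8e-08). Nob1, the endonuclease that makes the final cut of the small subunit RNA, had 127, 152 and 119 normalized counts in the controls and 510.0, 481 and 487 after FeSO4 (LFC of 1.89 ± 0.13, edgeR FDR 8.9e-08). These 3 genes showed little spread among the iron-treated mice.

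Nop14, a scaffold of the small subunit precursor, was the small subunit gene with the highest level per kb in the NaCl/PBS mice. Its normalized counts were 350.3, 317 and 282 there and 765, 572 and 639 in FeSO4/PBS mice (LFC of 1.06 ± 0.13, edgeR FDR 1.87e-05). The other subunits of the early-binding complex were also called, with LFCs of 2.21 ± 0.15 for Utp4, 1.55 ± 0.14 for Utp15, 1.69 ± 0.13 for Wdr75 and 2.02 ± 0.15 for Heatr1. Bysl (1.32 ± 0.18), Rrp9 (1.23 ± 0.18) and Utp20 (0.87 ± 0.15) completed the group, and Utp20 was the only small subunit gene with an LFC under 1.

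In the large subunit group, 9 of 10 genes were called higher, and it held both the largest and the smallest LFC of all 36 genes. Rrp1b (chr17:32255073-32282540, plus strand), a nucleolar protein that binds the large subunit precursor, had 115, 158 and 83 normalized counts in NaCl/PBS mice and 1217, 1402 and 1375 in FeSO4/PBS mice. This was an 11.2-fold rise (LFC of 3.49 ± 0.19, edgeR FDR 1.95e-08). Per kb, Rrp1b had the lowest level of the 36 genes in NaCl/PBS mice, at 21.3 ± 6.76 normalized counts per kb, next to Rrp12 at 21.3 ± 4.87, and ranked 18 among the 36 in FeSO4/PBS mice. Gnl3 (nucleostemin, a nucleolar GTPase) had 468, 508 and 445 normalized counts in NaCl/PBS mice and 2149, 1941 and 2220.3 in FeSO4/PBS mice (LFC of 2.15 ± 0.13, edgeR FDR 3.78e-08). Rrs1, an assembly factor of the large subunit precursor, had 219, 285 and 267 normalized counts in the controls and 1062, 1183 and 1042 in the iron-treated mice (LFC of 2.09 ± 0.13, edgeR FDR 4.9e-08). All 3 genes were separate between the groups.

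Bop1, Pes1 and Wdr12 encode a trimer required for large subunit processing, and they were among the least changed genes. Bop1 had 352, 400.2 and 309 normalized counts in NaCl/PBS mice and 484, 386 and 361 in FeSO4/PBS mice. It was the only gene of the set whose groups overlapped, and it was not called (LFC of 0.22 ± 0.14, edgeR FDR 0.21). Pes1 had an LFC of 0.75 ± 0.13 (edgeR FDR 0.000256) and Wdr12 of 0.42 ± 0.13 (edgeR FDR 0.0156). Nop2, the methyltransferase gene whose promoter is shown above, had 251, 275 and 221 normalized counts in NaCl/PBS mice and 727, 401 and 508 in FeSO4/PBS mice, with mouse 1 far above the others (LFC of 1.13 ± 0.18, edgeR FDR 0.000131). Without that mouse the LFC of Nop2 was 0.87 and the gene was still called. Gnl2, the GTPase of large subunit export, had an LFC of 2.32 ± 0.16, and Nop16 and Ebna1bp2 had LFCs of 1.05 ± 0.11 and 0.66 ± 0.12.

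Ddx21, an RNA helicase that acts in transcription and processing of ribosomal RNA, and Mybbp1a, a nucleolar cofactor that binds the polymerase I machinery, were both upregulated. Ddx21 had 729, 734 and 637 normalized counts in NaCl/PBS mice and 3158, 2692 and 2789 in FeSO4/PBS mice (LFC of 2.04 ± 0.14, edgeR FDR 8.72e-08). Mybbp1a had 742, 768 and 719 normalized counts in NaCl/PBS mice and 2806, 2103 and 2208 in FeSO4/PBS mice (LFC of 1.67 ± 0.13, edgeR FDR 1.85e-07). For both, the lowest iron-treated mouse was well above the highest control.

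**Figure D2:**
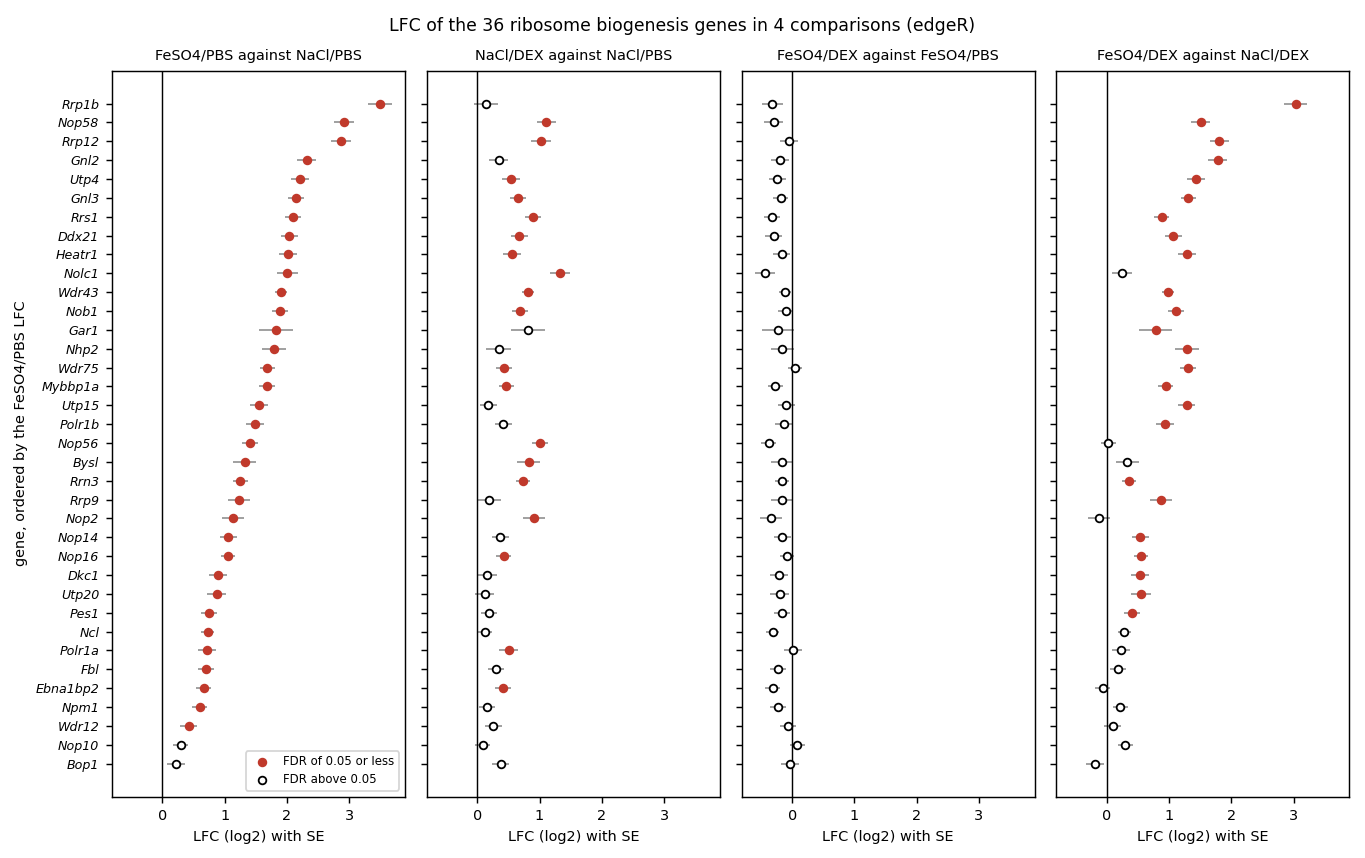
Points give the LFC (log2) of each gene with its SE in the 4 comparisons between groups, ordered by the LFC after FeSO4; filled points had an FDR of 0.05 or less. In the first panel 34 of 36 points are filled, in the second 19, in the third 0 and in the fourth 24.

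The next comparison asked what 2 h of DEX did in mice without iron. Part of the set was upregulated and no gene of it was downregulated. In NaCl/DEX against NaCl/PBS mice 19 of 36 genes were called higher and 0 lower, where 6.5% of all genes were higher and 7.15% lower. With an LFC above 1 in addition 4 of 36 were higher and 0 lower, against 2.97% and 3.41% of all genes. The 4 were Nolc1, Nop58, Rrp12 and Nop56. The median LFC was 0.43, with a range from 0.08 to 1.33, all on the positive side, and the median over all genes was -0.02. In 23 of 36 genes each NaCl/DEX mouse exceeded each NaCl/PBS mouse, against 17.6% of all genes, and in 0 each was below, against 20.3%. The comparison shares its control mice with the one above, so the calls of both are not independent. Beside this, 3 of 9 hepatocyte markers were higher in NaCl/DEX mice (summed levels 2428140 to 2738640) and 1 of 5 tested neutrophil markers was lower (70.5 to 115, with Ly6g, Camp and Ngp listed at 0). Of the endothelial markers 1 of 7 was higher and 1 lower, 1 of 6 stellate cell and 1 of 5 cholangiocyte markers were lower, and 0 were called in the other lists. The part of these markers in the result was not tested. FeSO4/PBS mouse 1 is in neither group, but it enters through the filter, the scaling and the spread, which all libraries share. Without that mouse 23 of the 36 genes were called. Of all genes, 1284 of 14264 tested were then higher, against 901 of 13857 with it. The median LFC was then 0.447 for the 36 genes and -0.006 over all genes.

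Nolc1 changed most, from the control values above to 995, 852 and 875 normalized counts in the NaCl/DEX mice. These lay above every control and below every FeSO4/PBS mouse (LFC of 1.33 ± 0.17, edgeR FDR 0.000115). Nop58 had 713, 599.9 and 715 normalized counts in NaCl/DEX mice (LFC of 1.11 ± 0.15, edgeR FDR 0.000257), and Nop56 had 457, 376 and 393 (LFC of 1.00 ± 0.13, edgeR FDR 0.000116). Both box C/D genes were separate from the controls. Fbl, their partner, had 338, 275 and 306 and was not called (LFC of 0.30 ± 0.13, edgeR FDR 0.153).

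Rrp12 had 210.4, 189 and 167 normalized counts in the NaCl/DEX mice (LFC of 1.02 ± 0.16, edgeR FDR 0.000751), and Wdr43 had 712, 678 and 723 (LFC of 0.81 ± 0.10, edgeR FDR 9.75e-05). In the small subunit group 7 of 11 genes were called, the others being Bysl (0.83 ± 0.18), Nob1 (0.68 ± 0.13), Heatr1 (0.56 ± 0.15), Utp4 (0.54 ± 0.15) and Wdr75 (0.43 ± 0.13). Nob1 had 201, 196 and 243 normalized counts after DEX. The large subunit group had 5 of 10 called. Rrs1 led by its p-value, with 444, 521 and 466 normalized counts (LFC of 0.89 ± 0.13, edgeR FDR 0.000343). Nop2 had 449.8, 496 and 460.1 normalized counts (LFC of 0.91 ± 0.18, edgeR FDR 0.00352) and Gnl3 had 663, 831 and 744 (LFC of 0.66 ± 0.13, edgeR FDR 0.00291). Each of these stood above all 3 controls.

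Rrn3 had 477, 445 and 483 normalized counts in NaCl/DEX mice and was called (LFC of 0.73 ± 0.12, edgeR FDR 0.000832). Polr1a was called as well (LFC of 0.50 ± 0.15, edgeR FDR 0.0337) although its groups overlapped, and Polr1b was not, with 332, 329 and 321 normalized counts (LFC of 0.42 ± 0.14, edgeR FDR 0.0675). Ddx21 had 1134, 1185 and 1039 normalized counts (LFC of 0.68 ± 0.14, edgeR FDR 0.00399) and Mybbp1a had 1013, 1039.9 and 1023 (LFC of 0.46 ± 0.12, edgeR FDR 0.0223). Of the 4 box H/ACA genes 0 were called. The nearest was Gar1, with 171, 144 and 83.6 normalized counts and an overlap with the controls through mouse 3 (LFC of 0.81 ± 0.27, edgeR FDR 0.0652).

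Rrp1b, the gene with the largest rise after FeSO4, had 123, 149 and 118 normalized counts in the NaCl/DEX mice. These overlapped the controls (LFC of 0.14 ± 0.19, edgeR FDR 0.695). Npm1 had 2072, 1704 and 1924 normalized counts and overlapped as well (LFC of 0.15 ± 0.12, edgeR FDR 0.476). Nop10 had 469, 437 and 442 (LFC of 0.08 ± 0.12, edgeR FDR 0.706). Bop1, with 494, 472 and 409 normalized counts, and Nop14, with 433, 392.1 and 401, were above all controls but missed the threshold (edgeR FDR 0.0972 and edgeR FDR 0.0908).

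With library size alone in place of the composition scaling, the count after DEX in NaCl mice was 12 of 36. Of all genes, 4.46% were then higher and 12.8% lower. The count was also 12 when NaCl/PBS mouse 3, NaCl/DEX mouse 1 or NaCl/DEX mouse 2 was left out. Those fits called 4.34%, 4.65% and 4.88% of all genes higher. Apart from the added minimum LFC, 12 genes were called in every alternative, and Polr1a, Utp4, Wdr75, Heatr1, Nop16, Ebna1bp2 and Mybbp1a were each lost in at least 1 of them.

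**Figure D3:**
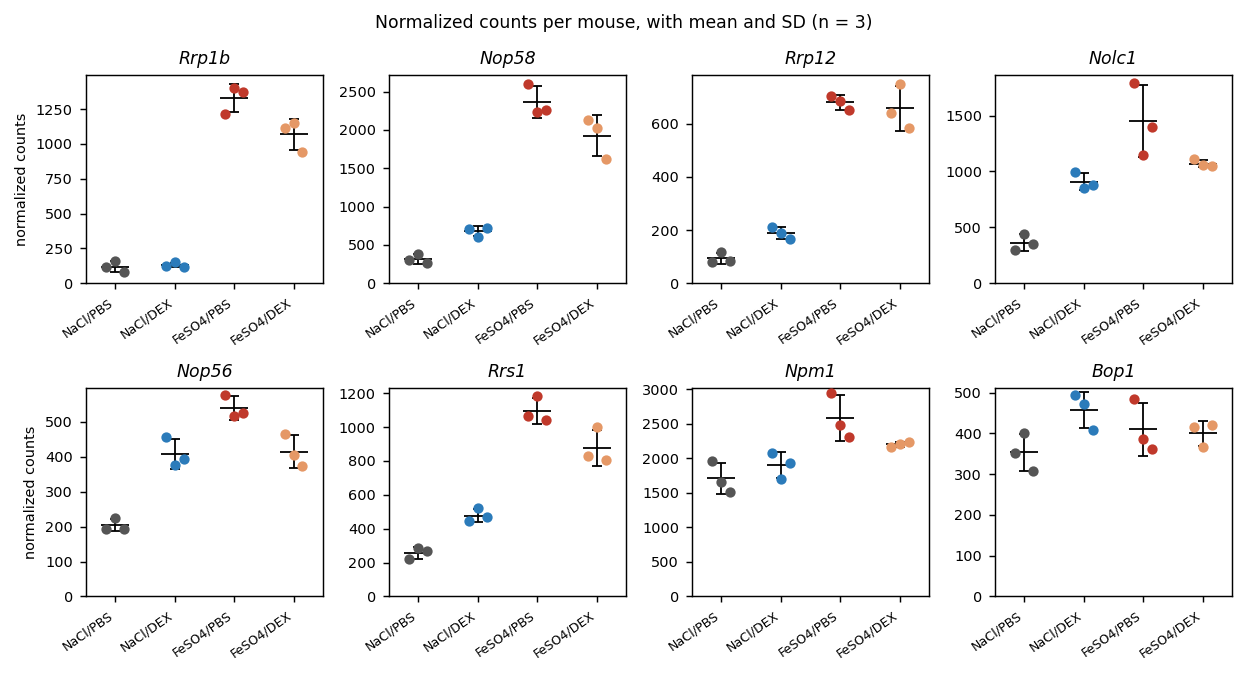
Normalized counts of 8 genes in each of the 12 mice (points), with the mean and SD of each group of 3; every axis starts at 0. Nolc1, Nop56, Nop58, Rrp12 and Rrs1 are intermediate in NaCl/DEX mice, Rrp1b is at the level of the controls there, and Npm1 and Bop1 change least.

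The third comparison asked what DEX did when iron had been given first. In FeSO4/DEX against FeSO4/PBS mice 0 of 36 genes were called higher and 0 lower by edgeR, and the same was true of all genes (0% higher and 0% lower). Over all genes DESeq2 called 5 higher and 6 lower. Without the filter on low counts edgeR called 99 higher and 71 lower of 25013 genes. At an unadjusted p under 0.05 there were 0 higher and 7 lower of the 36, and DESeq2 called 0 of the 36. The share of all genes at that unadjusted p was not counted, so the 7 cannot be set against it. The median LFC was -0.18, with a range from -0.44 to 0.09, and 33 of 36 LFCs were below 0. Of all genes, 7050 of 13857 had an LFC above 0. In 10 genes all FeSO4/DEX mice were below all FeSO4/PBS mice, against 4.85% of all genes, and in 0 genes all were above, against 4.45%. The median was -0.12 without FeSO4/PBS mouse 1 and also without FeSO4/DEX mouse 3, the mouse that was lowest of its group in 27 of 36 genes, and it was -0.26 without FeSO4/PBS mouse 2 and also without FeSO4/DEX mouse 2.

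Nolc1 again had the largest difference, with 1109.7, 1053 and 1049.9 normalized counts in FeSO4/DEX mice, all under the lowest FeSO4/PBS mouse (LFC of -0.44 ± 0.16, edgeR FDR 0.727). Nop56 had 466, 405 and 373 and was likewise separate (LFC of -0.38 ± 0.12, edgeR FDR 0.709), as was Nop58 with 2128, 2020.0 and 1618 (LFC of -0.30 ± 0.15, edgeR FDR 0.762). Rrs1 had 828, 998 and 805 normalized counts, below every FeSO4/PBS mouse (LFC of -0.32 ± 0.12, edgeR FDR 0.732). For Rrp1b the values were 1114, 1151 and 939 (LFC of -0.32 ± 0.17, edgeR FDR 0.767), and for Nob1 they were 477, 459 and 439.9 (LFC of -0.10 ± 0.12, edgeR FDR 0.903). None of these passed the threshold. An FDR above it does not show that the levels were equal.

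Npm1 with 2163, 2210.3 and 2235 normalized counts and Fbl with 322, 368 and 348 were also lower without overlap, at LFCs of -0.23 ± 0.12 and -0.22 ± 0.13. Ncl and Ebna1bp2 completed these 10 genes, and the other 26 overlapped between the groups. Rrp12 had 642, 752 and 585 normalized counts in FeSO4/DEX mice (LFC of -0.05 ± 0.15, edgeR FDR 0.969), with mouse 2 above all FeSO4/PBS mice. Wdr43 had 1523, 1331 and 1312 (LFC of -0.11 ± 0.10, edgeR FDR 0.849) and Rrn3 had 608, 632 and 554 (LFC of -0.16 ± 0.12, edgeR FDR 0.822). Nop2 had 478, 415 and 397 normalized counts (LFC of -0.34 ± 0.18, edgeR FDR 0.764), a difference that shrank to an LFC of -0.10 without FeSO4/PBS mouse 1.

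The effect of iron was then taken between the mice that all received DEX. FeSO4/DEX and NaCl/DEX mice are other animals than those of the first comparison, so the iron effect is measured a second time, under DEX, with no shared mouse. In FeSO4/DEX against NaCl/DEX mice 24 of 36 genes were called higher and 0 lower, against 22.4% and 20.9% of all genes. With an LFC above 1 12 of 36 were higher and 0 lower, against 10.6% and 9.83% of all genes. The median LFC was 0.66 and the range -0.19 to 3.03. In 30 genes every FeSO4/DEX mouse exceeded every NaCl/DEX mouse, against 28.8% of all genes. All 24 genes were also among the 34 called without DEX, and 17.7% of all genes were higher in both iron comparisons. Without FeSO4/PBS mouse 1 the count was 25, where 22.9% of all genes were higher and 24.4% lower. With library size alone it was 18 higher and 1 lower, where 15.5% of all genes were higher and 29.9% lower. Beside this, 5 of 5 tested neutrophil markers were higher, with sums of 70.5 to 115 in NaCl/DEX and 493 to 601 in FeSO4/DEX mice, where Elane was listed at 0. Macrophage markers were lower in 5 of 8 (7015 to 7847 against 4143 to 6169) and erythroid markers higher in 4 of 5 tested (2801 to 3674 against 3978 to 8907). Higher markers also numbered 2 of 9 for hepatocytes, 2 of 7 for endothelial cells with 1 lower, 2 of 6 for stellate cells, 1 of 5 for cholangiocytes and 1 of 7 for dividing cells with 1 lower. Their part in the result was not tested.

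Rrp1b had the largest rise here too, 8.19-fold (LFC of 3.03 ± 0.19, edgeR FDR 8.11e-08). Rrp12 (LFC of 1.80 ± 0.15, edgeR FDR 9.51e-07), Gnl2 (LFC of 1.78 ± 0.15, edgeR FDR 9.53e-07) and Nop58 (LFC of 1.51 ± 0.15, edgeR FDR 3.58e-06) followed, and the small subunit group had 10 of 11 called, with a median LFC of 1.11. The box H/ACA group had the same 3 of 4 genes called as without DEX, namely Nhp2 (1.29 ± 0.20), Gar1 (0.78 ± 0.26) and Dkc1 (0.53 ± 0.15). Nop10 had 485, 627 and 542 normalized counts in FeSO4/DEX mice, above all NaCl/DEX mice, and just missed the threshold (LFC of 0.29 ± 0.12, edgeR FDR 0.0611). Polr1b, with 636, 681 and 562 normalized counts in FeSO4/DEX mice, was called (LFC of 0.94 ± 0.14, edgeR FDR 0.000119).

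The 10 genes called without DEX but not with it were Polr1a, Nop56, Fbl, Ncl, Npm1, Nolc1, Bysl, Wdr12, Nop2 and Ebna1bp2. For Nop56 the FeSO4/DEX values given above and the NaCl/DEX values spanned nearly the same range (LFC of 0.02 ± 0.12, edgeR FDR 0.896). Nop2 was close to 0 as well (LFC of -0.12 ± 0.18, edgeR FDR 0.606). Nolc1 was separate between the groups but its LFC was 0.24 ± 0.16 (edgeR FDR 0.253). Bop1 had 416, 366 and 419.7 normalized counts in FeSO4/DEX mice and the lowest LFC of the set (LFC of -0.19 ± 0.14, edgeR FDR 0.285). Across the 36 genes the LFCs of both iron comparisons had a Pearson r of 0.868 and the same sign in 33 genes. Over all 13857 genes r was 0.797 and 80.5% had the same sign. Genes within the same libraries are not independent of each other, so these are descriptions.

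**Figure D4:**
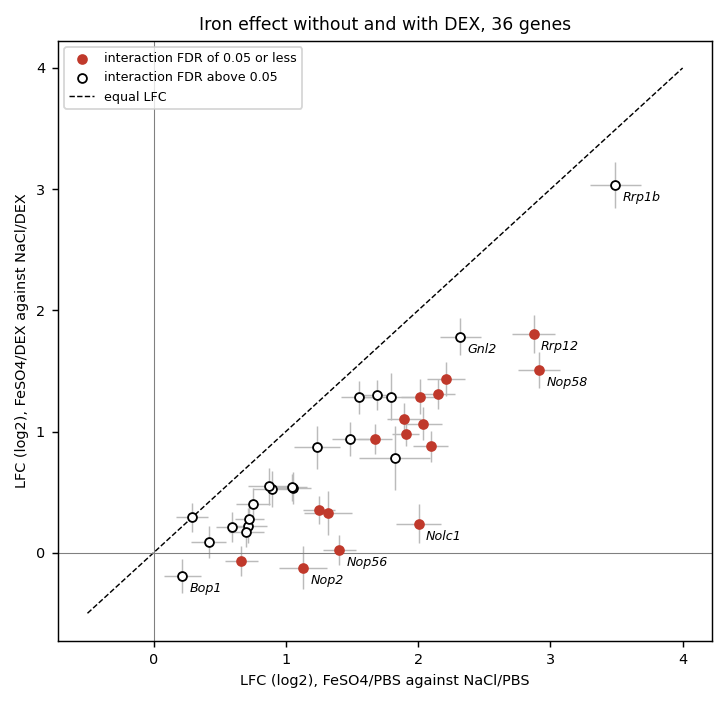
Each point is a gene, with its LFC (log2) in FeSO4/PBS against NaCl/PBS mice on the x axis and in FeSO4/DEX against NaCl/DEX mice on the y axis, and bars for the SE. All points but Nop10 lie below the dashed line of equal LFC, and the 16 filled points had an interaction FDR of 0.05 or less.

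Whether the iron effect differed with DEX was tested by the interaction, the iron LFC with DEX minus the iron LFC without it. By construction this is also the DEX LFC in iron-treated mice minus the DEX LFC in the others. It was lower than 0 at the threshold in 16 of 36 genes and higher in 0, against 3.2% and 2.99% of all genes. Beyond an LFC of 1 in size, 6 were lower and 0 higher, against 2% and 2.14% of all genes. The median was -0.54, with values below 0 in 35 of 36 genes, and the median over all genes was 0.02. Nolc1 had the largest difference (LFC of -1.76 ± 0.23, edgeR FDR 0.000547), and it was followed by Nop58 (LFC of -1.41 ± 0.21, edgeR FDR 0.00147) and Nop56 (LFC of -1.38 ± 0.18, edgeR FDR 0.000489). Nop2 (LFC of -1.26 ± 0.25, edgeR FDR 0.00907), Rrs1 (LFC of -1.22 ± 0.18, edgeR FDR 0.00128) and Rrp12 (LFC of -1.07 ± 0.22, edgeR FDR 0.00992) were the others beyond an LFC of 1.

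By role, the interaction was called in 1 of 3 polymerase I genes, Rrn3 (LFC of -0.90 ± 0.17, edgeR FDR 0.00591), and in both box C/D proteins other than Fbl. It was called in 0 of 4 box H/ACA genes, where Gar1 had -1.04 ± 0.37 (edgeR FDR 0.12) and Nop10 0.00. Among the small subunit genes 6 of 11 were called, with Wdr43 (LFC of -0.92 ± 0.14, edgeR FDR 0.00147) and Nob1 (LFC of -0.79 ± 0.18, edgeR FDR 0.0179) beside Rrp12, Bysl, Utp4 and Heatr1. The large subunit group had 4 of 10, namely Nop2, Rrs1, Gnl3 (LFC of -0.84 ± 0.18, edgeR FDR 0.0109) and Ebna1bp2, and Ddx21 (LFC of -0.97 ± 0.19, edgeR FDR 0.00781) and Mybbp1a (LFC of -0.73 ± 0.17, edgeR FDR 0.0228) were both called. Rrp1b was not, at -0.46 ± 0.26 (edgeR FDR 0.339). Without FeSO4/PBS mouse 1 the count was again 16, where 4.40% of all genes were lower. It was 10 without NaCl/PBS mouse 1 or NaCl/PBS mouse 3, where 2.17% and 2.18% of all genes were lower.

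The rest of the pathway was read from lists of other genes with known roles. After FeSO4 without DEX, 44 of 50 other large subunit assembly genes were higher and 0 lower, against 27.2% and 27.3% of all genes. Their median LFC was 1.04. Ccdc86 had the largest rise, from 125 ± 13.6 to 849 ± 176 normalized counts (SD, n = 3; LFC of 2.77 ± 0.17, edgeR FDR 3.78e-08), and Ppan came next (LFC of 2.68 ± 0.13, edgeR FDR 7.36e-09). The other small subunit genes gave 35 of 44 higher and 2 lower, with a median LFC of 0.82. Nol10 (LFC of 2.05 ± 0.15, edgeR FDR 1.32e-07) and Tsr1 (LFC of 1.87 ± 0.13, edgeR FDR 1.18e-07) rose most, and Rrp36 (LFC of -0.55 ± 0.21, edgeR FDR 0.0424) and Utp6 (LFC of -0.32 ± 0.10, edgeR FDR 0.0193) fell. The other polymerase I genes were less uniform, with 7 of 13 higher and 1 lower. Taf1d of the promoter selectivity factor (LFC of 1.85 ± 0.19, edgeR FDR 3.46e-06) and the polymerase subunit Polr1f (LFC of 1.64 ± 0.13, edgeR FDR 4.13e-07) rose, and the transcription terminator Ttf1 fell from 228 ± 4.72 to 112 ± 21.3 normalized counts (LFC of -1.04 ± 0.16, edgeR FDR 0.000129).

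Of the snoRNP assembly factors 6 of 10 were higher, led by Nufip1 (1.75 ± 0.14) and Naf1 (1.65 ± 0.21), and of the RNA exosome genes 9 of 13, led by Exosc1 (1.29 ± 0.20) and Exosc10 (1.18 ± 0.17). Among the cytosolic ribosomal proteins, which these factors build into subunits, 75 of 76 tested were higher, but with a median LFC of 0.63 and 1 gene above 1, Rpl10a (LFC of 1.38 ± 0.14, edgeR FDR 2.11e-06), ahead of Rpl12 (1.00 ± 0.16). After DEX in NaCl mice, 14 of 50 other large subunit and 8 of 44 other small subunit genes were higher, against 6.5% of all genes. The exosome list had 1 of 13 higher (7.69%), near that share. The polymerase I, snoRNP assembly and ribosomal protein lists had 0 higher. Lower genes numbered 0 in all of these lists, against 7.15% of all genes. With DEX in both groups the iron effect was called higher in 33 of 50, 25 of 44, 8 of 13 polymerase I, 4 of 10 snoRNP assembly, 3 of 13 exosome and 43 of 76 ribosomal protein genes, against 22.4% of all genes. The exosome share, 23.1%, was near that of all genes. This iron effect was called lower in 1 of the 50, 3 of the 44 and 1 of the 13 polymerase I genes and in 0 of the other lists, against 20.9% of all genes. The interaction was lower in 13 of 50 large subunit, 6 of 44 small subunit and 1 of 13 exosome genes, against 3.2% of all genes. It was lower in 0 genes of the other lists.

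**Figure D5:**
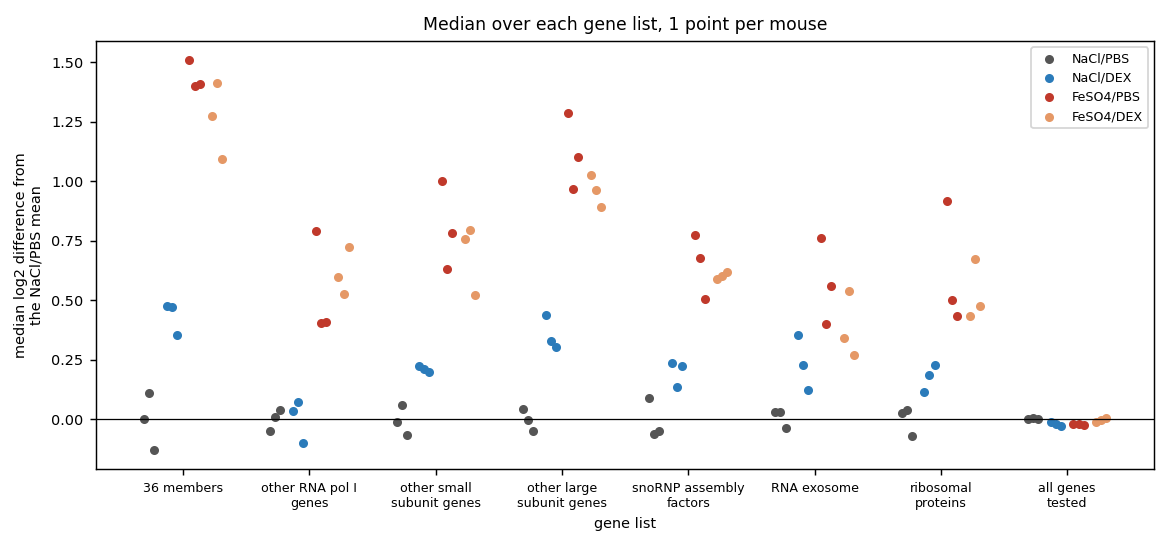
Each point is a mouse and gives the median, over the genes of a list, of the log2 difference from the NaCl/PBS mean. The FeSO4/PBS mice reach 1.40 to 1.51 for the 36 genes and the NaCl/DEX mice 0.35 to 0.48, while the median over all genes tested stays near 0 in every mouse.

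Myc, whose product binds the E-box, had 71.2, 186 and 116 normalized counts in NaCl/PBS mice and 1002, 1966 and 1451 in FeSO4/PBS mice (LFC of 3.58 ± 0.31, edgeR FDR 6.93e-07). After DEX alone it had 654, 631 and 624 (LFC of 2.37 ± 0.30, edgeR FDR 0.000126). In FeSO4/DEX mice it had 3393, 4677 and 3040.4, above every mouse of the other groups. The LFC against FeSO4/PBS mice was 1.33 ± 0.28 and did not pass the threshold (edgeR FDR 0.407). The 36 genes had LFCs below 0 in 33 cases in that comparison. The interaction of Myc was not called (LFC of -1.04 ± 0.40, edgeR FDR 0.156). From a list of Myc and related genes, Max (LFC of 0.79 ± 0.14, edgeR FDR 0.000342), Mxd1 (0.48 ± 0.16) and Mga (0.85 ± 0.21) were higher after FeSO4 without DEX. The groups of Mga overlapped. Mxd4 was lower in that comparison (LFC of -1.09 ± 0.11, edgeR FDR 3.49e-06). Mycl (LFC of -1.46 ± 0.27, edgeR FDR 0.00252) and the MYC antagonist Mnt (LFC of -1.09 ± 0.20, edgeR FDR 0.00187) were lower after DEX in NaCl mice. Mycl also had a positive interaction (LFC of 1.72 ± 0.38, edgeR FDR 0.0157), and Mxd3 was too low to be tested. In FeSO4/DEX against NaCl/DEX mice 5 of 8 tested genes of this list, Myc among them, were higher and 1 lower, against 22.4% and 20.9% of all genes. Of the higher ones 4 had an LFC above 1. Myc had the highest LFC of the list there, at 2.54, and Mxi1 was also called higher (LFC of 0.50 ± 0.19, edgeR FDR 0.0444).

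By the annotation, 6 of the 36 genes hold small nucleolar RNA genes in their introns, or 16.7%. Of all protein-coding genes in the counts table, tested or not, 259 of 21627 (1.2%) do. The 6 genes are Nop56 with 5, Nop58 with 4, Ncl, Wdr43 and Gnl3 with 3 each, and Dkc1 with 1. All 6 host genes were called higher after FeSO4 without DEX, at LFCs from 0.72 ± 0.11 for Ncl to 2.91 ± 0.16 for Nop58. As 34 of the 36 genes were called higher there, against 27.2% of all genes, this count does not set the host genes apart. The intronic RNAs themselves are not measured by an mRNA library. Exons of 29 of the 36 genes overlap exons of a gene on the opposite strand in the annotation, among them Bop1 with Hsf1 and Rrs1 with 2610203C22Rik. The library kit keeps the strand, but which strand setting was used in counting is not given in the sources used here, so reads of such pairs may be shared. Nop58, Nop10, Gar1, Npm1, Nolc1, Wdr75 and Nob1 have no such overlap.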

How the data were processed

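Per the labels and the study's methods, polyA RNA from each liver was made into stranded single-end libraries, and the authors aligned the reads with STAR 2.7.10b to mm39 and deposited raw counts per Ensembl gene; the strand setting used in counting is not given in the sources used here, and FastQC and DESeq2 are also named. Libraries held 16335651 to 23827340 counts. Genes were matched to symbols by GENCODE vM39 (54749 of 55414 rows), filtered with filterByExpr (13857 kept) and scaled by TMM. All 12 libraries were fitted in 1 edgeR quasi-likelihood model (edgeR 4.0.16, R 4.3.3) with a mean per group, and p-values were Benjamini-Hochberg adjusted over all genes tested. LFCs use edgeR's default prior count, and SEs follow from the F statistic. The deposited counts carry counting error, and the p-values also the spread between mice, which the labels call biological replicates. A call is an FDR of 0.05 or less. The 4 groups were compared in 4 contrasts and their interaction. Alternatives were DESeq2 1.42.0, other scalings and filters, a replicate block, an LFC beyond 1, the compared libraries alone and each mouse left out. Tests were checked on simulated data. Genes given mouse by mouse were, in each role group, the largest change after FeSO4 and the highest level per kb, the 8 smallest p-values among calls after DEX and in the interaction, and genes not called after FeSO4; from other lists, the largest rises and falls with a mean of at least 100 normalized counts. The members, lists and rules were chosen with earlier results of these data known. Promoters are from RefSeq (GRCm38.p6); the 6 genes without an entry there are Bop1, Fbl, Npm1, Rrp12, Rrs1 and Gnl2.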

Additional observations from a re-analysis of the deposited data

Results flagged for a closer look

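In 16 of the 36 genes the effect of FeSO4 differed between mice given DEX and mice given PBS, by the interaction test in edgeR (FDR of 0.05 or less over all genes tested, where 3.2% of all genes were lower). The interaction LFCs were -1.76 for Nolc1, -1.41 for Nop58, -1.38 for Nop56, -1.26 for Nop2, -1.22 for Rrs1, -1.07 for Rrp12 and -0.99 for Bysl. They were -0.97 for Ddx21, -0.92 for Wdr43, -0.90 for Rrn3, -0.84 for Gnl3, -0.79 for Nob1, -0.78 for Utp4 and -0.73 for Heatr1, Ebna1bp2 and Mybbp1a. In each of them the iron effect was the smaller one under DEX. All 16 were also called higher after DEX in NaCl mice, while 0 of the 36 were called after DEX in FeSO4 mice. The interaction holds both the rise in NaCl/DEX mice and any difference between FeSO4/DEX and FeSO4/PBS mice. With every mouse left out in turn and under the other scalings, filters and tools, 10 of the 16 were called each time. Utp4, Heatr1, Bysl, Nob1, Ebna1bp2 and Mybbp1a were not.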

How the results depend on the processing

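Directions of the called genes did not reverse under any alternative run. With an LFC beyond 1 required, the counts were 25 higher for iron without DEX, 4 higher for DEX in NaCl mice, 12 higher for iron with DEX and 6 lower for the interaction. Library size alone gave 32, 12, 18 higher with 1 lower, and 13 lower in the same order, where the median over all genes was -0.34, -0.18, -0.18 and 0.15. Of all genes, 16.5%, 4.46% and 15.5% were then called higher, and 2.36% lower in the interaction. Leaving out 1 mouse gave 33 to 35, 12 to 23 and 20 to 25 higher and 10 to 17 lower. The count after DEX was 12 without NaCl/PBS mouse 3, NaCl/DEX mouse 1 or NaCl/DEX mouse 2, and the interaction count was 10 without NaCl/PBS mouse 1 or 3. DESeq2 called 35, 21 and 25 higher and 18 lower. Same-numbered mice of different groups deviated together little (r of -0.09 to 0.13, over 0.1 in 2 of 18 pairs). Different-numbered mice had r of -0.15 to 0.11. The 2 pairs over 0.1 were NaCl/PBS with NaCl/DEX mice, numbers 1 (0.13) and 2 (0.11). The replicate block gave 34, 17 and 24 higher and 16 lower and changed no count by more than 1.5 times. With it, 26.1%, 6.11% and 21.4% of all genes were higher and 2.81% lower. For DEX in FeSO4 mice all alternatives gave 0. With 3 mice a group, differences of the size seen in that comparison may be missed.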
